A study of Mus musculus with 2 samples.

Results

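Neutrophils recovered from the intestine of irradiated mice were examined as 180 cells among 19577 cell barcodes in 2 single-cell RNA libraries. One library held sorted live immune cells from WT mice and the other from Dpf2 KO mice, both after 10 Gy X-ray irradiation of the animals. No unirradiated group was analysed here. Live immune cells had been collected by flow cytometry with a gate on GFP or tdTomato fluorescence, and the labels give neither the time after irradiation, the number of mice, nor which part of Dpf2 was deleted. Levels are given as CPM, the UMIs of a gene per 1000000 UMIs summed over the cells of a group. Each genotype was 1 library, so no difference between genotypes could be tested, and every interval below is an exact 95% interval that covers counting error only. The neutrophils were selected on raw UMIs (unique molecular identifiers, each counting 1 captured transcript): 20 or more of S100a8 and S100a9 together, 2 or more of Csf3r, Cxcr2, Retnlg, G0s2 and Il1r2 together, and none of the macrophage C1q genes, the B cell factors Ebf1 and Pax5, or the T cell genes Cd3e and Cd3d. Csf3r, Cxcr2, Retnlg, G0s2 and Il1r2, called the receptor criterion below, and the S100 pair therefore describe the selection and are no result. Of these 5 genes, Retnlg and G0s2 do not encode receptors.

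Neutrophils are short-lived granulocytes made in the bone marrow. During maturation they fill primary, then specific, then gelatinase granules, so that transcripts for granule proteins such as Camp, Ngp and Ltf mark immature cells, whereas blood and tissue neutrophils have largely stopped making them. Circulating cells carry the chemokine receptor CXCR2; ageing cells lose it and gain CXCR4, and cells activated in tissue express chemokines, IL-1 and ICAM-1. Neutrophils enter the gut from the blood when the epithelial barrier is damaged.

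The WT library held 60 neutrophils among 10896 barcodes (0.551%, 0.420 to 0.708%) and the KO library 120 among 8681 (1.38%, 1.15 to 1.65%). The share depended on how strictly B cell transcripts were excluded. After the S100 and receptor criteria, 82 WT and 220 KO barcodes remained, of which 11 WT and 83 KO carried an Ebf1 or Pax5 UMI, 6 and 48 of them exactly 1. Such a UMI was present in 33.3% of all WT barcodes and 62.3% of all KO barcodes, and in 22.6% and 43.0% of barcodes with 2 or more Cd3e and Cd3d UMIs; the part of free RNA in this was not tested. Without this criterion the libraries held 69 and 181 neutrophils. Just inside the S100 limit, at 20 to 24 UMIs, lay 10 WT and 12 KO cells, and just outside, at 15 to 19 UMIs, a further 12 and 26. Shares are of sorted cells and depend on the sort as well as on the tissue.

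Neutrophils were shallow cells, with a median of 1894 UMIs in WT and 2148.5 in KO against 4709 and 4269 in the remaining barcodes. The median mitochondrial share was 1.28% in WT and 2.33% in KO neutrophils. S100a8, which with S100a9 forms the cytosolic protein calprotectin, ranged from 3 to 558 UMIs per WT cell (median 22) and from 3 to 208 per KO cell (median 25). Scrublet called 2 WT and 4 KO neutrophils doublets, out of 5.85% and 4.79% of all barcodes. Xist and Y-linked UMIs were both present in each library. Y-linked UMIs without Xist were in 14 WT and 29 KO neutrophils, Xist without Y-linked UMIs in 7 and 11, and both in 6 and 3. The part of free RNA or doublets in this was not tested, so these counts do not give the sex of the cells. The libraries shared 24 cell barcodes, 1 of which was a KO neutrophil. Dpf2, which encodes a subunit of a BAF chromatin remodelling complex, had 2 UMIs over all WT and 6 over all KO neutrophils, too few to check the genotype label in these cells.

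The genes used for the selection describe the cells and carry no test. Csf3r, the receptor for the granulocyte growth factor G-CSF, was in 43 of 60 WT and 87 of 120 KO cells, at 705 and 577 CPM. Cxcr2, the main chemokine receptor of neutrophils, was in 7 and 24 cells, at 57.6 and 99.3 CPM. Il1r2, the decoy receptor for IL-1, was in 46 and 83 cells at 1151 and 726 CPM, and G0s2, an inhibitor of fat breakdown, in 47 and 87 cells at 1180 and 1111. Retnlg, a resistin-like secreted protein of neutrophils, was in 31 and 85 cells at 604 and 1284 CPM (2.13-fold, 1.68 to 2.72). Of these genes Retnlg alone differed by 2-fold between the libraries.

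Neutrophil markers that the selection did not use were found in both libraries. Clec4d, a C-type lectin receptor, was in 58 of 60 WT and 117 of 120 KO cells, at 3043 and 2730 CPM against 337 and 327 in monocytes. Mxd1, a MAX dimerisation factor, was in 54 and 105 cells, and Trem1, an amplifier of inflammatory signalling, in 38 and 71. Hcar2, a receptor for butyrate and niacin, was at 799 and 661 CPM, and Slfn4 at 302 and 444. Ly6g, the gene of the surface antigen used to sort mouse neutrophils, was the exception, with 2 UMIs in WT and 0 in KO. The eosinophil markers summed to 43.2 CPM in WT and 52.7 in KO, those of basophils and mast cells to 14.4 and 9.31, and the 5 erythroid genes were at 0. Macrophage markers summed to 367 and 354, and monocyte markers to 1468 and 1483 against 3750 and 5408 in monocytes. Plasma cell markers stood at 12634 and 29986 CPM; in KO 2 cells held 47.6% and 11.6% immunoglobulin UMIs, both called doublets, and without them the KO sum was 8916, against 89476 and 55756 in the remaining barcodes. T cell markers summed to 216 and 49.6 CPM, B cell markers to 7.19 and 62.0, and Paneth cell markers to 21.6 and 223, with 6 of 8 Paneth genes at 0 in WT and 1 of 8 in KO. The part of these sums in the comparisons below was not tested.

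Beside cells selected as monocytes, the neutrophils were rich in inflammatory transcripts. Cells with 5 or more UMIs of Ly6c2, Ccr2, F13a1 and Fn1 and none of C1q, Cxcr2, Retnlg or Il1r2 served as monocytes throughout (284 WT and 62 KO). These limits were set after the data were seen. This monocyte group was mixed. Its plasma cell markers summed to 165510 CPM in WT and 82311 in KO, above the 89476 and 55756 of the remaining barcodes. Its stromal markers summed to 2339 and 1202, against 1124 and 348 in the remaining barcodes. The part of such transcripts in the differences from monocytes was not tested. Among 2578 genes with 50 or more UMIs over both cell types in each library, 81 (3.14%) were at least 4-fold higher in neutrophils in both libraries and 65 (2.52%) at least 4-fold lower, after adding 10 CPM. Since both cell types were defined by transcripts, these values describe the selected cells.

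Chemokines and IL-1 family cytokines were among the genes above monocytes. Cxcl2, a chemokine that attracts neutrophils through CXCR2, stood at 13713 CPM in WT neutrophils and 17773 in KO, log2 differences from monocytes of 3.25 and 2.98. It was carried by 59 of 60 WT cells (median 28 UMIs, highest 103) and by all 120 KO cells (median 37, highest 269). Il1b, the inflammatory cytokine IL-1 beta, was at 6799 and 6266 CPM and differed from monocytes by 3.15 and 2.03. Cxcl3, another CXCR2 ligand, differed by 3.28 and 4.54. Of 14 measured cytokines and chemokines 4 were at least 4-fold higher in both libraries and none 4-fold lower, with medians of 1.62 in WT and 1.20 in KO.

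The RefSeq start of Cxcl2 (GRCm38.p6, chr5:90903649-90903948, plus strand) is shown because nearly every cell carried its transcript. The 300 bases run from 250 before to 50 after the start, with matches in capitals to the kappa B consensus and to GAGGAA, the core bound by the myeloid factor PU.1, on either strand. The capitals hold 2 overlapping kappa B matches, 1 on each strand, and 1 GAGGAA match on the reverse strand. Over 32851 mouse promoters of this length, 8.46% held a kappa B match and 28.3% held GAGGAA. A match is a description of the letters only.
Cxcl2: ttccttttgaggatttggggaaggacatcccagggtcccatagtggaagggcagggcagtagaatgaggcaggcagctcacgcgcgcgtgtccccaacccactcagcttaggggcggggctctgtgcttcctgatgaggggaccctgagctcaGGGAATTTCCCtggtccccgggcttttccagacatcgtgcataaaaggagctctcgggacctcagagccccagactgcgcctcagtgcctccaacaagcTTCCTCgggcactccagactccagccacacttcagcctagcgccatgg

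**Figure D1:**
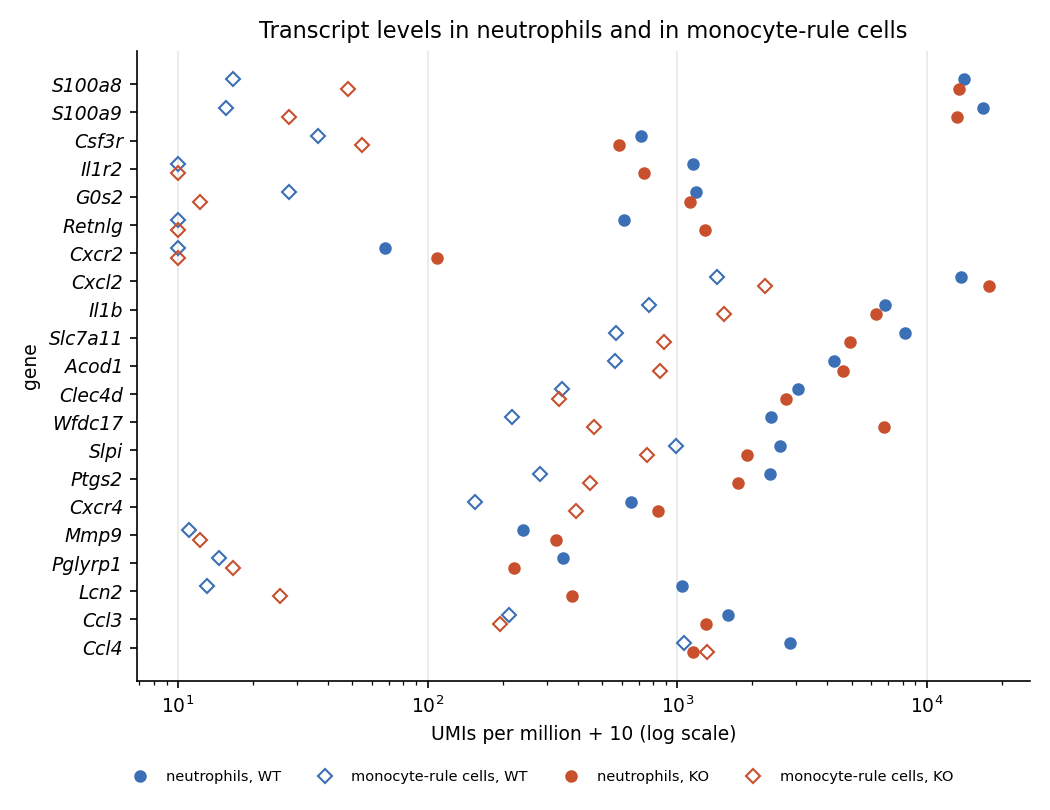
Levels of 21 genes in neutrophils (filled circles) and monocyte-rule cells (open diamonds) of the WT (blue) and KO (red) library, as CPM plus 10 on a log axis; each point is the sum over all cells of 1 library. Cxcl2 lay near 13713 CPM in WT and 17773 in KO neutrophils, whereas for Ccl4 the KO neutrophils, at 1142, lay below KO monocytes.

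Receptors and innate sensors followed the same direction. Of 14 chemoattractant and cytokine receptors 3 were at least 4-fold above monocytes in both libraries; C5ar1, the receptor for complement C5a, differed by log2 3.07 in WT and 2.25 in KO. Of 14 pattern recognition genes 4 were. Trem1 differed by 3.73 and 2.54, and Tlr4, the endotoxin receptor, by 2.87 and 2.86. Immediate early genes, which answer stimulation or handling within minutes, had 4 of 17, with the phosphatase gene Dusp1 at 6015 and 6068 CPM. Slc7a11, the cystine transporter, stood at 8180 and 4929 CPM against 557 and 877 in monocytes. Acod1, which makes itaconate, was at 4245 and 4610 against 553 and 843. Hdc, the enzyme that makes histamine, was at 1360 and 782 against 17.3 and 2.23. Ribosomal protein genes lay the other way, with medians of log2 -1.43 in WT and -2.04 in KO over 15 genes, 1 of them at least 4-fold lower in both libraries.

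Granule transcripts of the immature stages were concentrated in 1 WT cell. The 8 genes of the primary granule list together had 5 UMIs in WT and 6 in KO, with 6 and 5 of them at 0. Serpinb1a, an inhibitor of neutrophil elastase in that list, had 4 and 1. Mpo, the myeloperoxidase, had 0 and 4. The granule enzyme genes Mpo, Elane, Prtn3 and Ctsg together had 0 in WT and 5 in KO. Camp, the cathelicidin of specific granules, had 346 UMIs in 1 WT cell and 0 in every other neutrophil of either library. That same cell held all 262 WT UMIs of Ngp, 47 of the 49 UMIs of Ltf (lactoferrin), 84 of 89 of Chil3 and 79 of 144 of Lcn2. It also held the proliferation transcripts Mki67 (9 UMIs), Top2a (7) and Pclaf (20), the granule-stage factor Cebpe (2), and no UMI of Cxcl2 or Il1b. With 11227 UMIs it supplied 8.08% of all WT neutrophil UMIs, and it was not called a doublet. The WT levels of Camp, Ngp, Ltf and Chil3 therefore rest on 1 cell.

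Among the other cells, a UMI of Camp, Ltf or Ngp was found in 1 WT cell (2 UMIs) and in 15 KO cells, of which the highest held 7 and the next 4. Ngp, a cathelicidin-related protein of neutrophil granules, had UMIs in 13 of the KO cells. KO over WT, Ngp stood at log2 -4.54 with every cell. Without the granule-rich WT cell and the 2 immunoglobulin-rich KO cells it was at 0 in WT and 75.7 CPM in KO, or 3.10 on the log2 scale after adding 10. Other granule genes were spread over more cells: Mmp9, a gelatinase, was in 24 of 60 WT and 48 of 120 KO cells, at 230 and 316 CPM. Pglyrp1, a bacterial peptidoglycan-binding protein, was in 21 and 39 cells, and Lcn2, an iron-siderophore binding protein, in 25 and 55. Mmp8, the neutrophil collagenase, had 4 and 13 UMIs. Over the 14 specific and gelatinase granule genes the sum was 7612 CPM in WT and 1675 in KO, and 1605 and 1727 without those 3 cells.

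The start region of Ngp (GRCm38.p6, chr9:110419558-110419857, plus strand) is shown as a granule gene of the immature cell, with matches in capitals to TTGCNNAA, a motif of the C/EBP factors that drive granulocyte maturation, on either strand. It held 2 matches and no GAGGAA. Of the 32851 promoters, 10.8% held TTGCNNAA.
Ngp: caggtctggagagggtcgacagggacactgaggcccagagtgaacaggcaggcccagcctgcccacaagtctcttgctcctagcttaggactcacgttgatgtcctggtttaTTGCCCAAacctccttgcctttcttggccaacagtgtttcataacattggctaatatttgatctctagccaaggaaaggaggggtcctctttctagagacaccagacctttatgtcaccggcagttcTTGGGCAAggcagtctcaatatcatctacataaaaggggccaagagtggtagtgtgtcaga

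To order the cells by stage, an index was taken as log2 of granule-list UMIs plus 1 over activation-list UMIs plus 1, after thinning each cell to 1000 UMIs. The granule list held Camp, Ltf, Ngp, Lcn2, Chil3, Mmp8, Mmp9, Ly6g, Cd177, Itgb2l, Hp and Anxa1; the activation list held Icam1, Ccl3, Ccl4, Tnf, Il1a, Ccrl2, Cd274, Vegfa and Siglecf. The index was divided at -2.22 and -1 into 3 ranges, with each library weighted alike. They are called early, middle and late and are ranges of a score rather than cell types. In WT 17, 17 and 22 of 56 cells fell in the early, middle and late range (30.4%, 30.4% and 39.3%), and in KO 37, 47 and 33 of 117 (31.6%, 40.2% and 28.2%). Late cells made up 26.5 to 53.2% of WT and 20.3 to 37.3% of KO within counting error, and the intervals overlapped. Leaving out called doublets removed 2 WT and 4 KO cells, and the thinning and the limits were then set anew. The early range then held 18.5% of 54 WT and 29.2% of 113 KO cells. The part of the new limits in this change was not tested. The thinning left out 4 WT and 3 KO cells, and 4 WT and 16 KO cells lay exactly on a limit.

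Few granule transcripts entered the index. Early cells held a median of 2 granule-list UMIs in both libraries, and late cells 0. Activation-list UMIs had medians of 2, 3 and 14 in the early, middle and late WT cells and of 2, 3 and 8 in the KO cells, with the highest late cell at 52 in WT and 20 in KO. Apart from the granule-rich cell, with 82 granule-list UMIs, the early range held cells low in both lists, with at most 7 activation-list UMIs in WT and 5 in KO. In the plot of the index genes that cell stands alone at the top.

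**Figure D2:**
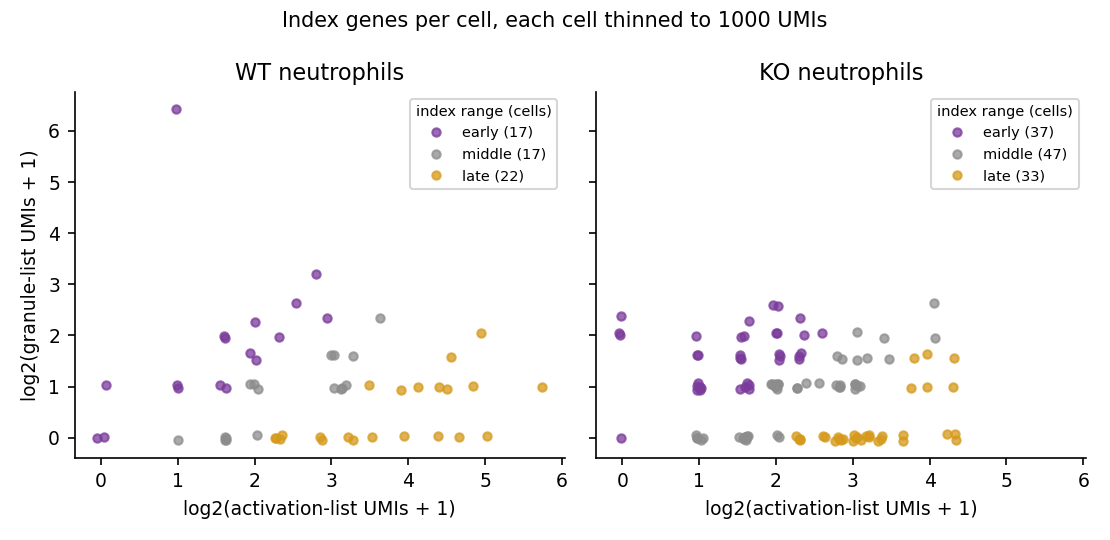
Each point is 1 neutrophil thinned to 1000 UMIs, with activation-list UMIs on the x axis and granule-list UMIs on the y axis, both as log2 of the count plus 1 and jittered slightly; colours give the range of the index. A single WT cell, with 82 granule-list UMIs, lies far above the others, and late cells spread to the right, further in WT (up to 52) than in KO (up to 20).

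The ageing receptor CXCR4 was not in the index. Cxcr4, which rises on aged neutrophils and directs them back to marrow, had a UMI in 53.6% of thinned WT cells (39.7 to 67.0%) and 54.7% of KO cells (45.2 to 63.9%). The share in T cells was 11.9% in WT and 14.0% in KO, and in B cells 21.7% and 31.2%, at median depths of 4597, 4776, 4369 and 4114 UMIs before thinning. Cxcr2 was in 7.14% of WT and 11.1% of KO neutrophils; it is one of the selecting genes. Before thinning, the shares were 65.0% and 79.2% for Cxcr4. In monocytes the thinned shares were 14.8% and 29.0% for Cxcr4. The intervals of the 2 libraries overlapped for Cxcr4 in neutrophils, which does not show that they are alike.

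Across the index, Cxcr4 was found in 58.8%, 47.1% and 54.5% of early, middle and late WT cells and in 45.9%, 57.4% and 60.6% of KO cells. With 17 to 47 cells in a range, the intervals of the ranges overlapped within each library, so no gradient of Cxcr4 along the index was detectable at this depth.

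**Figure D3:**
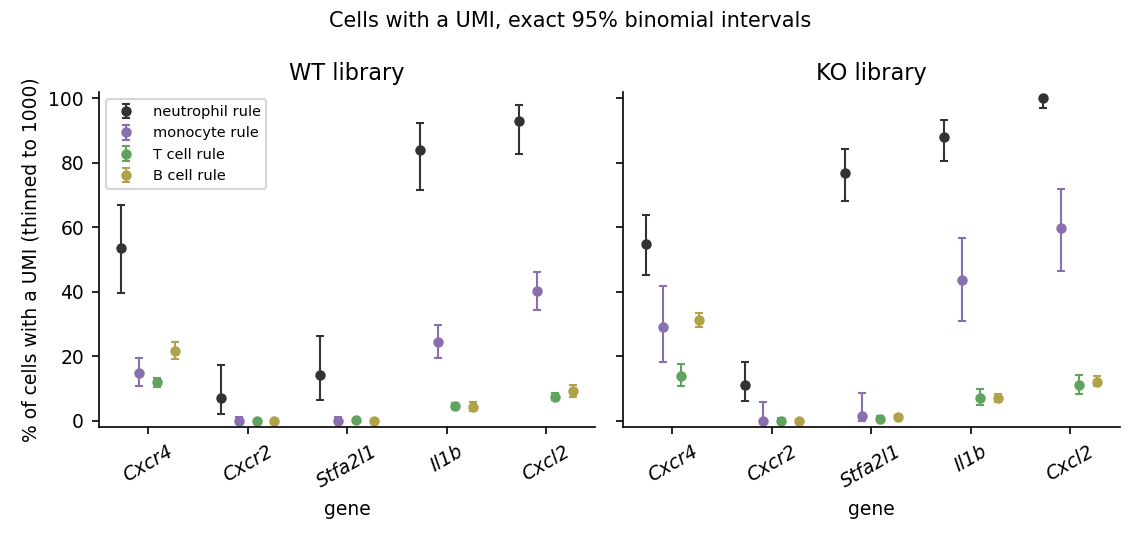
Percent of cells with at least 1 UMI after thinning every cell to 1000 UMIs, for 5 genes in neutrophils, monocyte-rule cells, T cells and B cells of each library; bars are exact 95% binomial intervals. Cxcr4 was found in 53.6% of WT and 54.7% of KO neutrophils, and Stfa2l1 in 14.3% and 76.9%.

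Other genes of the ageing list were measured in both libraries. Cxcr4 stood at 640 CPM in WT and 828 in KO. Itgam, the alpha chain of the integrin Mac-1, was at 223 CPM in WT and 326 in KO, and Itgax, the alpha chain of CD11c, at 115 and 96.2. Icam1, the endothelial and leukocyte adhesion ligand, was at 532 and 707. Tlr4 stood at 525 and 354, Itga4, an integrin alpha chain, at 86.3 and 168, and Cd47, the signal against phagocytosis, at 187 and 292. Ptprc, the pan-leukocyte phosphatase CD45, was at 1482 and 1176. Of the 8 listed genes 6 passed the limits for comparison, 4 lay above and 2 below equality, and none differed by 2-fold.

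Genes outside the 2 index lists were then ranked along the index in the WT library alone. Their values were read in the KO library, which the ranking had not used. The ranked genes included 6 of those used for the selection. Of 315 genes with 50 or more UMIs over the early and late ranges of each library, 18 (5.71%) were at least 2-fold higher in late WT cells and 7 (2.22%) in late KO cells. At least 2-fold higher in early cells were 13 (4.13%) in WT and 9 (2.86%) in KO. These counts include 2 selecting genes in WT and 1 in KO, which are no result. In each direction 2 genes passed in both libraries. Another draw of the thinning gave 30 late genes in WT, with 4 late and 1 early in both, so these counts depend on the draw. Without the granule-rich cell, 23 of the same genes were 2-fold higher in late and 21 in early WT cells. Of the 10 highest late genes of WT, 5 lay above 0 in KO, where 46.7% of all 315 did, and of the 10 highest early genes 7 lay below 0, where 53.3% did.

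Clec4n, the fungal sensor Dectin-2, was the late gene that passed in both libraries among the ranked ones. It was at 288 CPM in early and 779 in late WT cells (2.71-fold, 1.42 to 5.52) and at 228 and 680 in KO (2.98-fold, 1.76 to 5.25). Rel, a subunit of NF-kappa B, differed by log2 1.38 in WT and 0.65 in KO, and Eya3 by 1.75 and 0.78. Il1rn, the IL-1 receptor antagonist, differed by 1.30 in WT and -0.09 in KO, and Zeb2, a transcription factor of myeloid cells, by 1.32 and 0.04. The other late genes of the WT ranking, Celf2, Chka, Eea1, Mir6236 and Mirt1, lay between log2 -1.29 for Mirt1 and 0.03 for Mir6236 in KO. Without the granule-rich cell the WT values were 1.01 for Clec4n, 0.90 for Il1rn, 0.96 for Zeb2 and 0.94 for Mirt1, so the last 3 were under 2-fold.

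On the early side Wfdc21, a whey acidic protein domain gene, and Esyt2, a membrane tether, passed in both libraries. Wfdc21 was at 973 CPM in early and 195 in late WT cells and at 1323 and 522 in KO, log2 late over early of -2.26 and -1.32. Esyt2 had values of -1.27 and -1.08. H2afz, a histone variant, and Hmgb2, a chromatin protein of dividing cells, ranked early in WT at -1.85 and -1.38 but stood at 0.35 and -0.18 once the granule-rich cell was left out, and at 0.16 and -0.25 in KO. S100a8, a selecting gene and so no result, likewise went from -1.16 to -0.39 in WT, with -0.37 in KO. The remaining early genes, Il1rap, Fnip2, Jmjd1c, Crebrf and Ints6, stood between -2.39 and -1.57 in WT without that cell and lay between -0.31 for Jmjd1c and 0.79 for Ints6 in KO.

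Between genotypes, 822 genes had 100 or more UMIs over both sets of neutrophils and a UMI in 5% of cells of at least 1 library. Their median log2 KO over WT, after adding 10 CPM, was -0.02. At least 2-fold higher in KO were 47 genes (5.72%), and at least 2-fold lower 30 (3.65%). Without the granule-rich and the 2 immunoglobulin-rich cells, these counts were 42 and 31. The 100 UMIs were summed over 138991 WT and 322349 KO UMIs. A gene seen mainly in KO therefore passed at a lower CPM than one seen mainly in WT. Tmem267, Ccl2, Tbc1d8 and Cdk11b, with 8 to 12 WT and 96 to 108 KO UMIs, passed mainly through KO. The counts in the 2 directions are thus partly set by that limit. With no filter beyond 1 UMI, 887 genes were higher and 979 lower. All values compare 1 library with 1 library, so genotype, animal and library preparation cannot be told apart, and fold intervals cover counting error only. Mitochondrial transcripts, which follow cell condition and handling, were higher in KO, with mt-Nd1 at 432 and 1238 CPM and mt-Rnr1 at 1892 and 5240; the part of this in the differences below was not tested.

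**Figure D4:**
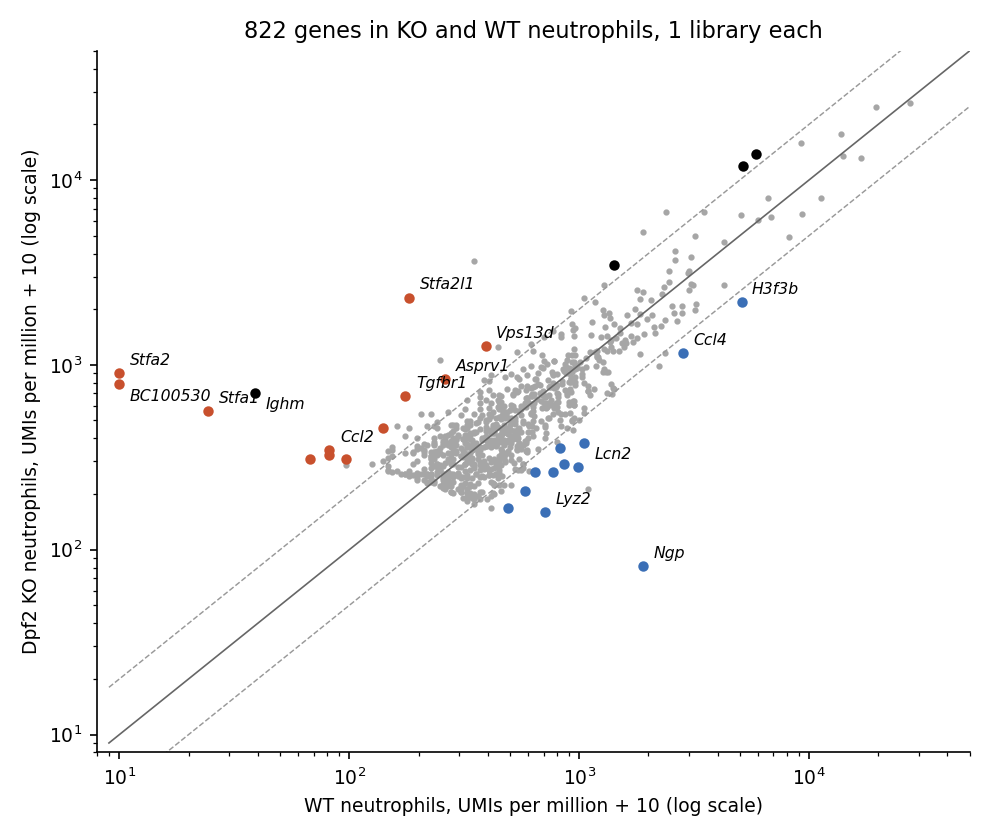
Levels of 822 genes in WT (x axis) and Dpf2 KO (y axis) neutrophils, as CPM plus 10 on log axes; the solid line marks equality and the dashed lines a 2-fold difference, with the 12 highest genes in red, the 12 lowest in blue and 4 plasma cell genes in black. Stfa2 and BC100530, with 0 WT UMIs, stand at the left edge, and Ngp, held by 1 WT cell, at the lower right.

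Stefin A family genes, which encode small inhibitors of cysteine cathepsins and lie together on chromosome 16, held the 4 highest ratios among the ranked genes. Stfa2l1 (chr16:36156811-36161953, plus strand, GRCm38) had 24 UMIs in 13 of 60 WT cells and 742 in 103 of 120 KO cells, 173 against 2302 CPM (13.3-fold, 8.89 to 20.9). Stfa2 had 0 UMIs in WT and 288 in 58 KO cells, at least 41.4-fold higher when WT is set to a floor of 3 UMIs; the exact lower limit of the fold was 33.4. BC100530 had 0 and 250 UMIs, the latter in 48 cells, at least 35.9-fold higher on the same floor, with an exact lower limit of 29.0. Stfa1 had 2 and 177 UMIs (38.2-fold, 10.4 to 318). The gene model Gm5483, in the same list, had 47 and 1178 UMIs. At least 1 of Stfa2l1, Stfa2, Stfa1 and BC100530 was seen in 25% of WT and 90.8% of KO cells, and all 4 in 0 and 20 cells. These copies are close in sequence, and how the authors' counting treated reads that match several copies was not examined. The values of single copies are therefore uncertain.

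The start regions of Stfa2l1 (GRCm38.p6, chr16:36156561-36156860, plus strand) and Stfa2 (chr16:36408314-36408613, minus strand) are printed because both genes differed and to show how close the copies are, with GAGGAA matches on either strand in capitals. They share an identical run of 65 bases. Stfa2l1 held 2 matches and Stfa2 held 1; neither held a kappa B or TTGCNNAA match.
Stfa2l1: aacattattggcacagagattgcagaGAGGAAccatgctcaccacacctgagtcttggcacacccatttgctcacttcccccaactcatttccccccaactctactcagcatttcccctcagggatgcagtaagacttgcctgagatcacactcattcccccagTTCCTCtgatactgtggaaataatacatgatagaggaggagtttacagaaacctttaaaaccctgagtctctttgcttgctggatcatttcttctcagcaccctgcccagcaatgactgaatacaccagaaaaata
Stfa2: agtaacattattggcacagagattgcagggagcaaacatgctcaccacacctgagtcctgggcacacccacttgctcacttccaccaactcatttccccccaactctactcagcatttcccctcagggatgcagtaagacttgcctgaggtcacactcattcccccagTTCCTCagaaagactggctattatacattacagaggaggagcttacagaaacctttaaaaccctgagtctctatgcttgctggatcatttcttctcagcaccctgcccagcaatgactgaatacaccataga

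Stefins were low in the remaining barcodes, where they were also higher in KO. Stfa2l1 stood at 1.24 CPM in the remaining WT barcodes and 35.9 in KO, with a UMI in 0.443% and 5.54% of them. In thinned T cells Stfa2l1 had a UMI in 0.142% of WT and 0.459% of KO cells, and in B cells in 0 of 1064 (a floor of 3 cells is 0.282%, and the exact upper limit 0.346%) and 1.17%. The part of free RNA from neutrophils in those barcodes was not tested.

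Other genes higher in KO neutrophils had smaller differences. Tgfbr1, a receptor of transforming growth factor beta, was in 16 WT and 75 KO cells at 165 and 664 CPM (4.01-fold, 2.60 to 6.47). Ccl2, the monocyte chemoattractant, was in 3 and 27 cells at 71.9 and 335, with 37.0% of the KO UMIs in 1 cell. Asprv1, an aspartic protease, was at 252 and 828, Vps13d, a lipid transfer protein, at 381 and 1256, and Ckap2l, a spindle protein, at 130 and 444. Tbc1d8 and Cdk11b had values of log2 1.98 and 1.68. Tmem267 was at log2 2.19 in neutrophils and 2.13 in the remaining barcodes of the same libraries, and 51.0% of its KO neutrophil UMIs lay in 1 cell. Wfdc17, an inhibitor-type gene of activated phagocytes, was at 2374 and 6726 (2.83-fold, 2.52 to 3.19) and in 49 of 60 and 117 of 120 cells. In the remaining barcodes Wfdc17 and Asprv1 also stood higher in KO, by log2 1.27 and 1.28.

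The genes lowest in KO held chemokine, granule and ribosomal genes. Ccl4, a chemokine for monocytes and T cells, was at 2828 CPM in WT and 1142 in KO, with UMIs in 40 of 60 and 77 of 120 cells. Lyz2, the macrophage and neutrophil lysozyme, was at 698 and 149, with 44.3% of the WT UMIs in 1 cell. Lcn2 differed by log2 -1.46 with every cell and -0.42 without the 3 cells named above. Homer1, a scaffold protein, was at 978 and 270, Pde7b, a cyclic AMP phosphodiesterase, at 763 and 254, and Il1f9, the IL-36 gamma cytokine, at 633 and 254. H3f3b, a histone H3.3 gene, was at 5072 and 2181 and also lower in the remaining KO barcodes (log2 -0.63). Mbnl1 differed by -1.57, with 40.7% of WT and 37.8% of KO UMIs in 1 cell each. Rpl13, Rps15a and Rps4x lay between -1.22 and -1.55. With each cell weighted alike, Lyz2 stood at -0.90, Lcn2 at -0.87, Rpl13 at -0.98 and Rps4x at -0.72, all under 2-fold, and 19 of the 30 lower and 32 of the 47 higher genes were shared with the summed counts. A further alternative kept only cells with no UMI of Cd79a, Jchain, Trac, Col1a1, Csf1r or the Paneth cell Defa genes, 3 WT and 7 KO. Other markers, such as Igha, were not part of that limit. Among these cells, Ccl4, Mbnl1, Homer1 and Rps4x were above 0. Mbnl1 and Rps4x had no WT UMI there.

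By gene list, 6 of 9 protease inhibitor genes were at least 2-fold higher in KO (median log2 3.40), all of them stefins, Gm5483 or Wfdc17; the list was chosen with their difference already known. Stfa2, BC100530 and Stfa1 passed the 100-UMI limit through the KO library, so the count and median are partly set by that limit, and 5 of the 14 listed genes in the files did not pass. Every one of 6 adhesion genes lay above 0 (median 0.57), the highest being the integrin Itgal at 187 and 341 CPM, and none reached 2-fold. Among 10 ribosomal protein genes every one lay below 0 (median -0.69) and 2 were at least 2-fold lower. The 8 NF-kappa B feedback genes had a median of 0.44, with the deubiquitinating regulator Tnfaip3 at 403 and 866. For comparison, 47.9% of the 822 genes lay above 0.

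**Figure D5:**
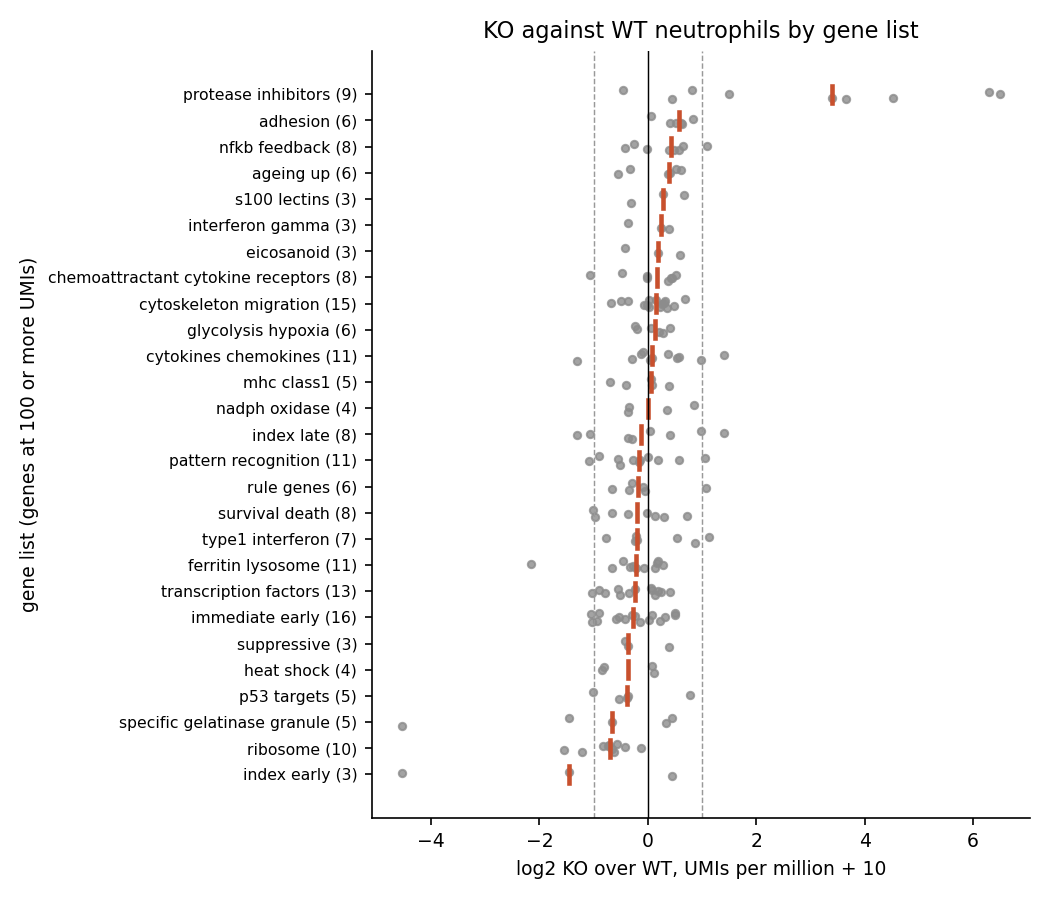
Log2 KO over WT of the genes in each list that passed the limits (grey points, number in brackets), with the list median as a red bar and dashed lines at 2-fold. The protease inhibitor list lies apart at a median of 3.40, the ribosome list at -0.69, and the early index list, at -1.46, includes Ngp and Lcn2, whose WT UMIs came largely from 1 cell.

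Effector programmes had list medians within 0.5 of equality. In the cytokine and chemokine list 7 of 11 genes were above 0 (median 0.07), from Ccl4 up to Il1a, the alarmin IL-1 alpha, at 194 CPM in WT and 534 in KO (2.75-fold, 1.82 to 4.29). Tnf was in 25 of 60 WT and 74 of 120 KO cells, at 317 and 633. Immediate early genes had a median of -0.27, with Egr1, a transcription factor, at 2345 and 1142 and Dusp2 at 561 and 267. Pattern recognition genes had a median of -0.16, with Clec7a (Dectin-1) at 928 and 431 and Tlr2, a sensor of bacterial lipoproteins, at 259 and 546. In the type 1 interferon list Ifitm1 was at 1043 and 2283 and Rsad2 at 425 and 245 (median over 7 genes -0.20).

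The NADPH oxidase, which makes superoxide in the phagosome, was represented in both libraries. Its 6 listed genes, not all named here, summed to 2274 CPM in WT and 2280 in KO. Of the 4 that passed the limits for comparison, 2 lay above and 2 below equality, and none differed by 2-fold. The cytosolic subunits Ncf1 and Ncf4 were at 439 and 137 CPM in WT and 565 and 161 in KO. The membrane subunit Cyba was at 547 and 425, and the GTPase Rac2 at 317 and 242. Cybb, the catalytic subunit, had 51 UMIs in 11 of 60 WT cells and 13 UMIs in 13 of 120 KO cells, below the limit of 100 UMIs for comparison, and 41.2% of the WT UMIs lay in 1 cell (0.110-fold, 0.0548 to 0.205).

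Genes of survival and of the radiation response lay in both directions. Mcl1, on which neutrophils depend for survival, was at 1827 CPM in WT and 2252 in KO, and Bcl2l11, which encodes the death inducer BIM, at 928 and 1532. Pmaip1, a p53 target encoding NOXA, was at 532 and 261, Mdm2, the p53 inhibitor, at 266 and 462, and Btg2, an antiproliferative p53 target, at 1324 and 909. The 5 measured p53 targets had a median of -0.38 with 1 above 0, and the 8 survival and death genes -0.19 with 3 above 0. No unirradiated library was analysed, so these values hold no comparison with dose.

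Plasma cell genes, left out of the ranking, were higher in KO through few cells. Ighm, the heavy chain of IgM, had 4 UMIs in WT and 225 in KO, and 94.2% of the KO UMIs lay in 1 cell. Igha, Igkc and Jchain were higher in KO by log2 1.24, 1.20 and 1.29, with 66.4%, 72.6% and 63.3% of KO UMIs in 1 cell, and stood at -0.29, -0.90 and -0.36 without the 3 cells. Immunoglobulin UMIs were otherwise a median of 1.30% of a WT and 0.831% of a KO neutrophil's UMIs.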

How the data were processed

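The deposited files hold whole-number UMI counts per gene and barcode, filtered by the authors with Cell Ranger 7.0.0 on GRCm38 per the submitters' processing notes and, for Cell Ranger, per the file headers. No column went unused for lack of a sample. Barcodes with at least 500 UMIs, 200 genes and at most 20% mitochondrial UMIs were kept (10896 WT and 8681 KO), and neutrophils chosen by the UMI limits above; they held 138991 and 322349 UMIs. Members and gene lists were chosen with earlier results of these data known. Limits for monocytes (5 UMIs), T cells (2 Cd3e and Cd3d UMIs) and B cells, the comparison with monocytes, and leaving out 3 cells (1 granule-rich, and 2 with over 10% immunoglobulin UMIs) were chosen after seeing the data.

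Counts were summed over cells and ratios taken after adding 10 CPM. Genes compared between libraries had 100 UMIs and were in 5% of cells of 1 library. Named were the 12 highest and 12 lowest such genes, the 10 highest and 10 lowest along the WT index outside its lists, and list members by level or ratio. Immunoglobulin, sex-linked, haemoglobin and mitochondrial genes, unnamed models and other cells' markers stayed out of the rankings, 4 of these being named apart; Gm5483 and the mitochondrial genes were singled out after their values were seen. Shares of cells were compared after thinning to 1000 UMIs. Doublets were called with Scrublet and kept, and left out as an alternative. Intervals are exact (Clopper-Pearson for shares, Poisson for levels, conditional binomial for folds) at 95%, and a floor of 3 UMIs per library bounds folds against 0. These cover counting error only. No test between genotypes was made. The scripts were checked on simulated data. Python 3.11.15, numpy 2.4.6, scipy 1.17.1, scanpy 1.11.5 and matplotlib 3.10.9 were used, with gene positions from GENCODE M21.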

Additional observations from a re-analysis of the deposited data

How the results depend on the processing

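No paired analysis was possible because each genotype was 1 library. Of the named-gene values recomputed under alternatives, 343 of 384 moved by less than their counting interval, 35 moved and 6 reversed; of list medians, 423 of 432 moved by less than the SD among the list's genes, 8 by more, and 1 reversed from past 2-fold. Of all 432, 31 changed sign, 13 of them in the cells with no UMI of Cd79a, Jchain, Trac, Col1a1, Csf1r or Defa genes. The cause of these changes was not tested. The alternative with no filter beyond 1 UMI changes only which genes are counted as 2-fold apart. It could not change a named-gene value or a list median, and its values are included among those that moved by less. The neutrophil share was 0.257% in WT and 0.680% in KO with 50 or more S100 UMIs, 0.844% and 2.05% with 10 or more, and 2.09% in KO without the Ebf1 and Pax5 criterion. With 50 CPM added, 19 genes were 2-fold lower in KO. With no filter beyond 1 UMI, 887 were higher and 979 lower. Keeping only cells with no UMI of Cd79a, Jchain, Trac, Col1a1, Csf1r or Defa genes left 3 WT and 7 KO cells and 19 genes. Of those genes 3 were higher and 3 lower. In these cells Mbnl1 log2 KO over WT was 3.83, with Rps4x at 5.35, Ccl4 at 2.67, Homer1 at 0.36 and Ngp at 2.93. Without the granule-rich WT cell Ngp was at 3.02 and the median of the granule list at 0.33. Without called doublets, with thinning and limits set anew, the early range held 18.5% of WT cells. Along the index, 2 ranges in place of the 3 ranges gave 29 late and 20 early genes in WT, 5 early in KO, and 1 late and 1 early in both. Leaving out doublets gave 3 late and 5 early in KO, and 1 and 1 in both. Leaving out the granule-rich cell gave 1 and 1 in both. Another thinning seed gave 30 late genes in WT, 5 early in KO, and 4 late and 1 early in both. Without thinning, Cxcr4 was in 79.2% of KO cells; thinned to 500 UMIs, Cxcr4 was in 30% and 39.2%. With 60 and 120 neutrophils, depth limits every value along the index.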

Other observations

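Iron storage and lysosomal genes were abundant in neutrophils of both libraries. Fth1, the ferritin heavy chain, was at 27527 CPM in WT and 26090 in KO, with a median of 53 UMIs per WT cell and 58 per KO cell. Ftl1, the ferritin light chain, was at 4259 and 2705, and Hmox1, which degrades haem, at 2324 and 2631. Of 11 compared genes of this list 4 lay above 0 and 7 below, with a median log2 KO over WT of -0.22.

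Among 15 genes of the cytoskeleton and migration, 10 lay above 0 and none differed by 2-fold. Tmsb4x, which binds monomeric actin, was at 11252 CPM in WT and 7985 in KO, Actb, an actin, at 6619 and 7929, and Sorl1, a sorting receptor, at 604 and 974. These values are from 1 library per genotype and were not tested.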
